A study of Mus musculus with 8 samples.

Results

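Mest, Nnat and 8 further genes (Copg2, Blcap, Peg3, Peg10, Sgce, Ndn, Impact and Plagl1) were followed through the 8 libraries of brown adipose tissue (BAT) RNA in the deposited table. The genes were taken by symbol and are 10 of the 49452 genes listed. Nnat and Mest had been picked because they were high under high-fat diet (HFD) in these same libraries, Copg2 and Blcap because they overlap those genes, and the other members because they are known paternally expressed genes (PEGs). The HFD values of all 10 genes are therefore given as a description with no test.

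The study followed transcripts of BAT, the tissue that turns fuel into heat, through cold exposure and through a HFD. All mice were male C57BL/6, with 2 mice in each of 4 groups. One pair of groups was 10 to 12 weeks old and was kept at 22 °C (replicates 4 and 7) or exposed to 4 °C for 24 h (replicates 2 and 11). Mice in the cold were fasted for its last hours according to the methods, which do not state it clearly for those at 22 °C. The other pair was 32 weeks old and had been fed control diet (CD, replicates 6 and 8) or HFD (replicates 2 and 6) for 28 weeks. The labels call the control food normal chow and the results of the study a micronutrient-matched control diet. No mutant allele, transgene or Cre driver is named for any of these mice. Both 22 °C and CD mice are controls, but they differ in age and are not compared by a test. The tissue label held against its markers, since none of the 8 brown adipocyte markers was below 0.1 FPKM throughout and their summed level was 1787 to 8662 FPKM.

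Genomic imprinting silences one parental copy of a gene through DNA methylation laid down in the germ line, so a PEG is read mainly from the copy inherited from the father. Many PEGs act in growth and metabolism, and Mest is known in white fat as a gene that climbs as adipocytes enlarge. Mest encodes a hydrolase-like protein of the endoplasmic reticulum, and Nnat encodes neuronatin, a small membrane protein of the same compartment first known from brain. Copg2, a coat protein subunit of Golgi vesicles, and Blcap, a small membrane protein gene, are not classed as PEGs. FPKM (fragments per kilobase of transcript, scaled to the mapped fragments of the library) adds the reads of both parental copies, so parental origin was not measured here.

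The sequences just before the start sites are shown for Mest and Nnat, the genes with the widest range over the libraries, and for Blcap, in whose intron Nnat lies. They are the 250 bases ahead of the RefSeq start (build GRCm38.p6), written 5′ to 3′ on the strand of the gene. Mest is on the plus strand at chr6:30737800-30738049, Nnat on the plus strand at chr2:157559828-157560077 and Blcap on the minus strand at chr2:157566362-157566611. RefSeq lists other starts for Mest, and the one shown was chosen after its sequence was seen. Capitals mark 2 motifs searched on both strands, the hexamer TGCCGC (or GCGGCA), known as the core of ZFP57 binding sites at imprinted genes, and GCATGCGC (or GCGCATGC), known as the NRF1 motif. Both motifs were chosen after the sequences had been seen.
Mest: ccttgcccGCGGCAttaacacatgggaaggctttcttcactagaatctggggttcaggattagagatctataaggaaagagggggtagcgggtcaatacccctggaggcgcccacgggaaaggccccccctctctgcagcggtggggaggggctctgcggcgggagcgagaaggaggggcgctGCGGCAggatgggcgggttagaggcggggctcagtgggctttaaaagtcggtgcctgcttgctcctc
Nnat: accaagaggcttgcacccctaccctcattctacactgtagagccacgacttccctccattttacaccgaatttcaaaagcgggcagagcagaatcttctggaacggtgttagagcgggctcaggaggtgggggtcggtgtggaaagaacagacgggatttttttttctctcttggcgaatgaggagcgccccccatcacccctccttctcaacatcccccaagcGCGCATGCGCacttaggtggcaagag
Blcap: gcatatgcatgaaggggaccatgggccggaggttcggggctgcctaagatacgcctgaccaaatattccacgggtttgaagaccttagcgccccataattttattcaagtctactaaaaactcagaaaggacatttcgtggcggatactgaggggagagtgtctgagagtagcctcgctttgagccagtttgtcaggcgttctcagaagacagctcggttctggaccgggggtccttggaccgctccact

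The Mest window shown held the ZFP57 hexamer 2 times, a window shifted by 3 bases did too, and the third Mest window, at chr6:30733256-30733505, held 0 and had 7 CpG (as many or more in 46.3% of windows). The Nnat window held 2 overlapping matches of the NRF1 motif, and neither motif was found in the Blcap window. Of the 9 windows found for 7 of the 10 genes, 4 held the hexamer and 2 the NRF1 motif. Copg2, not classed as a PEG, and Plagl1 held the hexamer 1 time each. Ndn held the NRF1 motif 1 time. Of 32851 windows of the same length, 8.68% held the hexamer and 2.26% the NRF1 motif. The Mest window had 14 CpG, and the Nnat and Blcap windows had 12 each, against a median of 6 over all windows. As many CpG or more were found in 29.4% of windows for Mest and 33.5% for Nnat and Blcap. No methylation or binding was measured in these samples, so the matches are a description of letters only.

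The libraries differed in ways that cross or follow the groups. The satellite-repeat gene Gm10800 exceeded 100 FPKM in replicate 4 of 22 °C, replicate 11 of 4 °C, replicate 8 of CD and replicate 2 of HFD (satellite-high libraries) and was at most 4.13 FPKM in the remaining libraries (satellite-low). In 3 libraries (both at 22 °C and CD replicate 6) every X gene was listed at 0, which is why genes of the X, Y and mitochondrial chromosomes were left out of the tests. That gap coincides with the 22 °C group, so it and the cold exposure cannot be told apart in the cold comparison. The log2(FPKM + 1) of 9927 expressed protein-coding genes was higher by a median of 0.21 at 4 °C than at 22 °C, and that of 9926 such genes by a median of 0.29 under HFD than under CD. A difference of the 10 genes is best read against these shifts. By the step size of low values, 1 fragment on a transcript of 2000 bases was worth 0.00439 to 0.00602 FPKM. All 10 genes were at 0.1 FPKM or more in all 8 libraries, so each passed the filter on low values in every group.

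**Figure D1:**
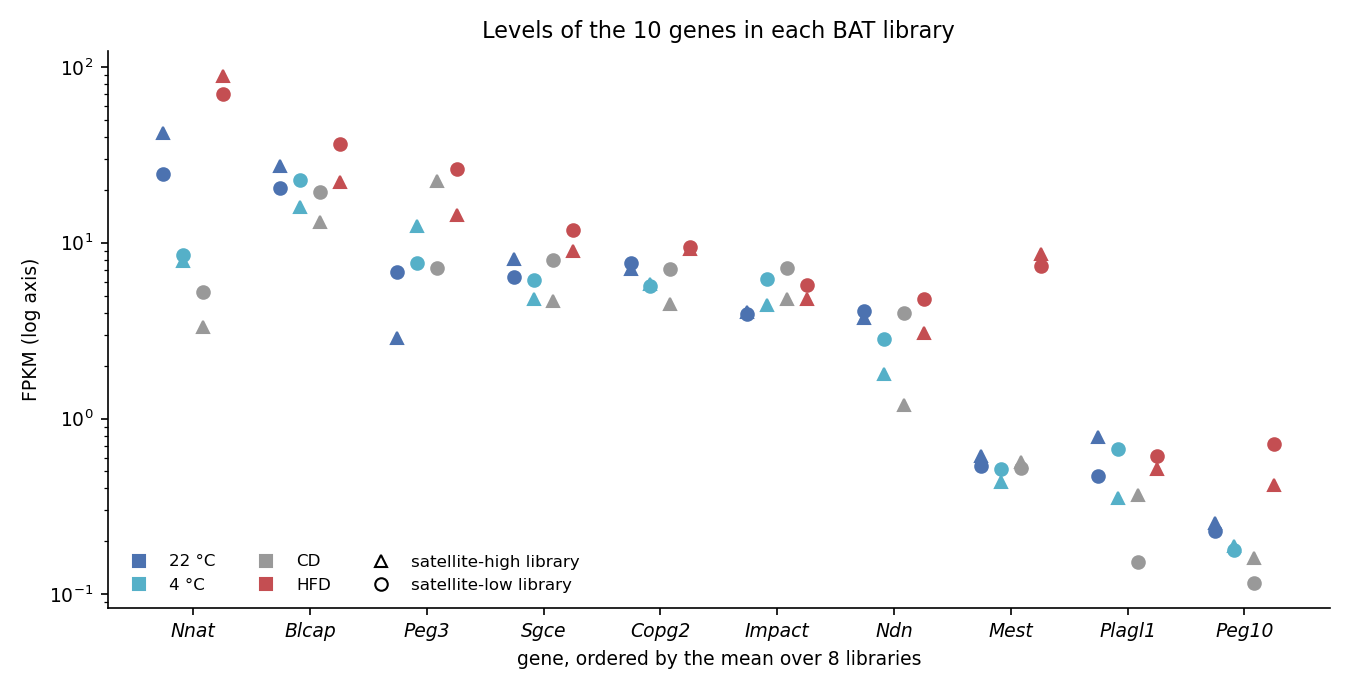
FPKM (log axis) of the 10 genes in each of the 8 libraries, ordered by their mean, with color for the group and triangles or circles for satellite-high or satellite-low libraries. Mest and Nnat stand apart under HFD, with Mest at 7.36 and 8.62 FPKM against at most 0.614 FPKM in the other 6 libraries.

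Mest (ENSMUSG00000051855, chr6:30723547-30748465 in GRCm38, plus strand) was near-silent in 6 of the libraries. It stood at 0.614 and 0.534 FPKM at 22 °C, at 0.520 and 0.438 FPKM at 4 °C, at 0.527 and 0.568 FPKM under CD, and at 8.62 and 7.36 FPKM under HFD. The HFD libraries did not overlap those of any other group, and the ratio of mean FPKM of HFD to CD was 14.6. By the step of low values these FPKM correspond to about 115 fragments in the lowest library and 2219 in the highest, if all fragments came from the longest transcript. The order of the group means was HFD, 22 °C, CD and 4 °C, of which the libraries of 22 °C and CD overlapped.

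On the log2(FPKM + 1) scale Mest was higher under HFD by 2.54. Within the satellite-high libraries the difference was 2.62 and within the satellite-low libraries 2.45. CD replicate 6 shares the start of its description label with the 22 °C and 4 °C libraries, and the other diet libraries share another one, with the meaning of neither given. Against CD replicate 8 alone the difference of Mest was 2.52. Mest was picked on the diet comparison and not on the cold one, though earlier results of these data were known. In the cold comparison Mest differed by -0.09 (SE 0.088, 95% interval -0.31 to 0.13, limma adjusted p 0.572). A difference of that size was not distinguishable from the spread of the libraries. Over its 12 alternatives the adjusted p of Mest ran from 0.131 to 0.948.

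Copg2 (ENSMUSG00000025607, chr6:30747554-30896794, minus strand) ends inside the end of Mest. The 912 shared bases are exonic in both genes and are 23.1% of the exonic bases of Mest and 17.8% of those of Copg2. The libraries were directional, but whether strand was used in estimating FPKM is not given in the sources used here, so reads of the shared bases may be divided between the genes. Copg2 stood at 7.08 and 7.72 FPKM at 22 °C, 5.71 and 5.83 FPKM at 4 °C, 7.05 and 4.499 FPKM under CD, and 9.27 and 9.42 FPKM under HFD. Its HFD libraries were above all others, by a ratio of mean FPKM of 1.62 to CD and a log2 difference of 0.64. Its 2 CD libraries spanned a wide range and overlapped those at 4 °C. In the cold Copg2 differed by -0.31 (SE 0.18, 95% interval -0.75 to 0.13, limma adjusted p 0.335). Mest varied 19.7-fold between its lowest and highest library and Copg2 2.09-fold.

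The other neighbours of Mest were scarce, and none besides Copg2 reached a mean of 1 FPKM. Tsga13 and Klf14, the next genes beyond Copg2, stayed at or below 0.0648 FPKM. Cep41, a centrosomal protein gene upstream of Mest, was singled out after its values were seen. It stood at 0.512 and 0.467 FPKM at 22 °C, 0.336 and 0.306 FPKM at 4 °C, 0.487 and 0.486 FPKM under CD, and 1.52 and 1.32 FPKM under HFD. Its log2 difference under HFD was 0.70 (SE 0.17, limma adjusted p 0.167, from 0.0120 to 0.747 over its alternatives), so it did not pass the test although its HFD libraries lay above all others. The microRNA gene Mir335, which sits in an intron of Mest, was listed at 0 in all 8 libraries, and its mature microRNAs were not measured here.

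**Figure D2:**
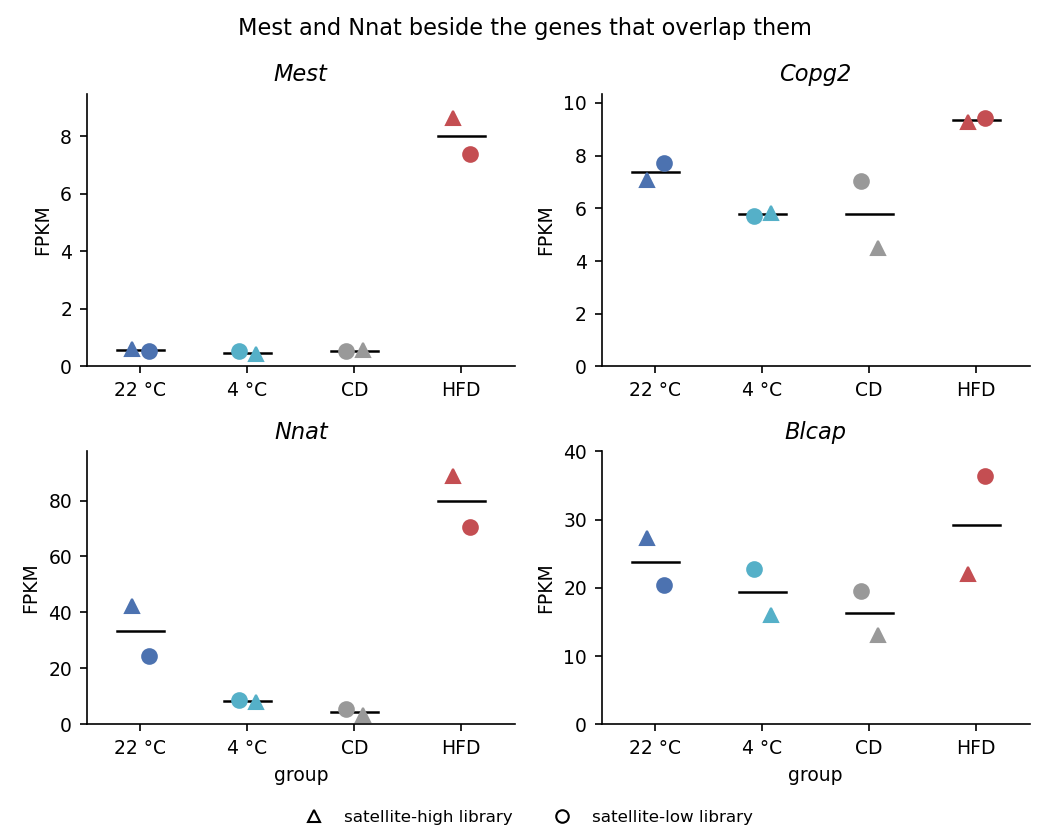
FPKM of Mest, Copg2, Nnat and Blcap by group, 1 point per library with a line at the group mean, triangles for satellite-high and circles for satellite-low libraries. Mest is above 1 FPKM only in the HFD libraries, whereas Nnat is also at 24.6 and 42.1 FPKM at 22 °C and below 10 FPKM at 4 °C and under CD.

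Nnat (ENSMUSG00000067786, chr2:157560078-157562522, plus strand) had a different pattern from Mest. It stood at 42.1 and 24.6 FPKM at 22 °C, 8.49 and 7.92 FPKM at 4 °C, 5.27 and 3.33 FPKM under CD, and 88.7 and 70.6 FPKM under HFD. The libraries of the 4 groups did not overlap, with the order HFD, 22 °C, 4 °C and CD. The 2 control groups thus lay far apart, at a mean of 33.3 FPKM at 22 °C and 4.30 FPKM under CD, and these groups, which differ in age, were not compared by a test. The ratio of mean FPKM of HFD to CD was 18.5 and the log2 difference was 3.94. The difference was 4.37 within satellite-high libraries, 3.51 within satellite-low libraries and 4.21 against CD replicate 8 alone.

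In the cold the mean of Nnat was 4.06-fold lower, at 8.21 ± 0.401 FPKM against 33.3 ± 12.4 FPKM at 22 °C (SD, n = 2 each). Its log2 difference was -1.85 (SE 0.30, 95% interval -2.60 to -1.11), lower in both satellite types (-2.27 and -1.43), and only 19 of 17477 tested genes, Nnat included, had a value as low. The limma adjusted p was 0.0517 and missed the threshold of 0.05. Under 9 of 13 alternatives Nnat passed, with the adjusted p ranging from 6.01e-04 to 0.179 over all of them. It did not pass with no filter on low values, nor when 22 °C replicate 4, 4 °C replicate 2 or 4 °C replicate 11 was left out. Without 22 °C replicate 4, the higher of the controls, the difference was -1.47.

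Blcap (ENSMUSG00000067787, chr2:157556362-157571274, minus strand) spans all 2445 bases of Nnat on the opposite strand, and the genes share 0 exonic bases. Blcap stood at 27.3 and 20.4 FPKM at 22 °C, 22.7 and 15.97 FPKM at 4 °C, 19.6 and 13.1 FPKM under CD, and 22.0 and 36.4 FPKM under HFD. The groups next to each other in the order of means all overlapped. Blcap was higher under HFD than CD by a log2 difference of 0.79 and differed by -0.29 in the cold (SE 0.27, 95% interval -0.97 to 0.38, limma adjusted p 0.540). The cold difference was -0.74 in satellite-high and 0.15 in satellite-low libraries, with opposite signs. With a single library per group in each type, library type and mouse cannot be told apart. The range from the lowest to the highest library was 26.7-fold for Nnat and 2.78-fold for Blcap.

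The other neighbours of Nnat with at least 1 FPKM on average were Tgm2 (a transglutaminase that cross-links proteins), Ctnnbl1, Rprd1b and Tti1. None passed in either comparison. Tgm2 stood at 23.8 and 22.2 FPKM at 22 °C, 47.8 and 33.9 FPKM at 4 °C, 32.2 and 17.5 FPKM under CD, and 42.9 and 56.8 FPKM under HFD. Its log2 difference was 0.78 in the cold (limma adjusted p 0.141) and 1.02 under HFD (limma adjusted p 0.376). The other neighbours stayed between 2.45 and 8.24 FPKM in all libraries.

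Peg3 encodes a zinc finger protein of a PEG cluster on chromosome 7 (ENSMUSG00000002265, chr7:6703892-6730431, minus strand) and had the largest standard error of the 10 genes in the cold fit. It stood at 2.88 and 6.80 FPKM at 22 °C, 7.69 and 12.4 FPKM at 4 °C, 7.23 and 22.4 FPKM under CD, and 14.4 and 26.4 FPKM under HFD. Both cold libraries were above both at 22 °C, whereas CD and HFD overlapped. The cold difference was 0.97 (SE 0.40, 95% interval -0.04 to 1.98, limma adjusted p 0.216, from 0.0239 to 0.764 over its alternatives). It was 1.79 within satellite-high and 0.16 within satellite-low libraries, and it passed only without 22 °C replicate 7, where it was 1.48. Under HFD the difference was 0.57 in all libraries, -0.61 within satellite-high and 1.74 within satellite-low libraries, with opposite signs. Each type had a single library per group, so library type and mouse cannot be told apart. Of the neighbours of Peg3, Zfp787 ranged from 7.53 to 18.2 FPKM and Zfp28 from 0.888 to 2.74 FPKM, and neither passed in either comparison.

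Peg10, a gene derived from a retrotransposon and needed in the placenta, and Sgce, encoding epsilon-sarcoglycan of the muscle and nerve membrane, lie head to head on chromosome 6 with starts 99 bases apart. Peg10 (ENSMUSG00000092035, chr6:4747306-4760517, plus strand) stood at 0.254 and 0.228 FPKM at 22 °C, 0.179 and 0.189 FPKM at 4 °C, 0.117 and 0.161 FPKM under CD, and 0.419 and 0.718 FPKM under HFD. Its groups did not overlap, but the levels were low, at about 89 to 418 fragments per library. Sgce (ENSMUSG00000004631, chr6:4674350-4747207, minus strand) stood at 8.03 and 6.34 FPKM at 22 °C, 6.15 and 4.80 FPKM at 4 °C, 7.97 and 4.68 FPKM under CD, and 8.96 and 11.8 FPKM under HFD. Its HFD libraries were above all others.

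Both genes of this pair were thus highest under HFD and lower at 4 °C than at 22 °C. The HFD to CD ratio of mean FPKM was 4.10 for Peg10 and 1.64 for Sgce, with log2 differences of 0.46 and 0.66. With 0.1 rather than 1 FPKM added these differences were 1.45 and 0.74, and after median centring 0.10 and 0.31. In the cold the log2 difference was -0.07 for Peg10 (SE 0.055, 95% interval -0.21 to 0.071) and -0.34 for Sgce (SE 0.22, 95% interval -0.88 to 0.20), with limma adjusted p of 0.492 and 0.385. The added 1 FPKM compresses differences of Peg10 and of Plagl1, whose levels were all below 1 FPKM. Mest was also below 1 FPKM at 22 °C and 4 °C, and its cold difference was -0.22 with 0.1 FPKM added. Of the 10 neighbours of the pair, the 6 with a mean of at least 1 FPKM were Pon1, Pon2 and Pon3 (paraoxonases), Bet1 (vesicle transport), Casd1 (sialic acid acetylation) and Ppp1r9a (an actin-binding protein). They ranged from 1.73 FPKM for Ppp1r9a to 61.2 FPKM for Pon3, and none passed in either comparison.

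Ndn encodes necdin, a growth-restraining protein of the Prader-Willi region on chromosome 7 (ENSMUSG00000033585, chr7:62346569-62350262, plus strand). It stood at 3.75 and 4.10 FPKM at 22 °C, 2.85 and 1.80 FPKM at 4 °C, 3.98 and 1.19 FPKM under CD, and 3.07 and 4.77 FPKM under HFD. Both cold libraries lay below both at 22 °C, with a log2 difference of -0.58 (SE 0.22, 95% interval -1.14 to -0.029, limma adjusted p 0.189, from 0.0279 to 0.547 over its alternatives), and it did not reach 2-fold under any of them. CD and HFD overlapped, with a log2 difference of 0.55 that was 0.89 within satellite-high and 0.21 within satellite-low libraries. The nearby Ube3a, Snrpn and Snurf did not pass in either comparison.

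Impact is an inhibitor of the amino acid starvation kinase GCN2, and Plagl1 a zinc finger factor that holds back cell growth. Impact (ENSMUSG00000024423, chr18:12972252-12992948, plus strand) stood at 4.04 and 3.91 FPKM at 22 °C, 6.25 and 4.45 FPKM at 4 °C, 7.15 and 4.81 FPKM under CD, and 4.81 and 5.79 FPKM under HFD. Its log2 mean was lower under HFD than under CD by -0.13 and higher by 0.11 without CD replicate 6, and the libraries overlapped. Its cold difference of 0.34 (SE 0.21, 95% interval -0.20 to 0.87, limma adjusted p 0.381) vanished after rescaling to the protein-coding sum without Ucp1, where it was -0.0042. Plagl1 (ENSMUSG00000019817, chr10:13060504-13131694, plus strand) stood at 0.781 and 0.469 FPKM at 22 °C, 0.674 and 0.354 FPKM at 4 °C, 0.152 and 0.366 FPKM under CD, and 0.516 and 0.616 FPKM under HFD. Its cold difference was -0.10 (SE 0.15, 95% interval -0.49 to 0.28, limma adjusted p 0.716). Both HFD libraries of Plagl1 lay above both CD libraries, with a ratio of mean FPKM of 2.19 and a log2 difference of 0.32, or 0.96 when 0.1 rather than 1 FPKM was added. The neighbour of Impact above 1 FPKM was Osbpl1a, at 8.80 to 30.1 FPKM, and those of Plagl1 were Ltv1, Fuca2, Phactr2 and Sf3b5, at 1.36 to 7.80 FPKM. None of them passed in either comparison.

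**Figure D3:**
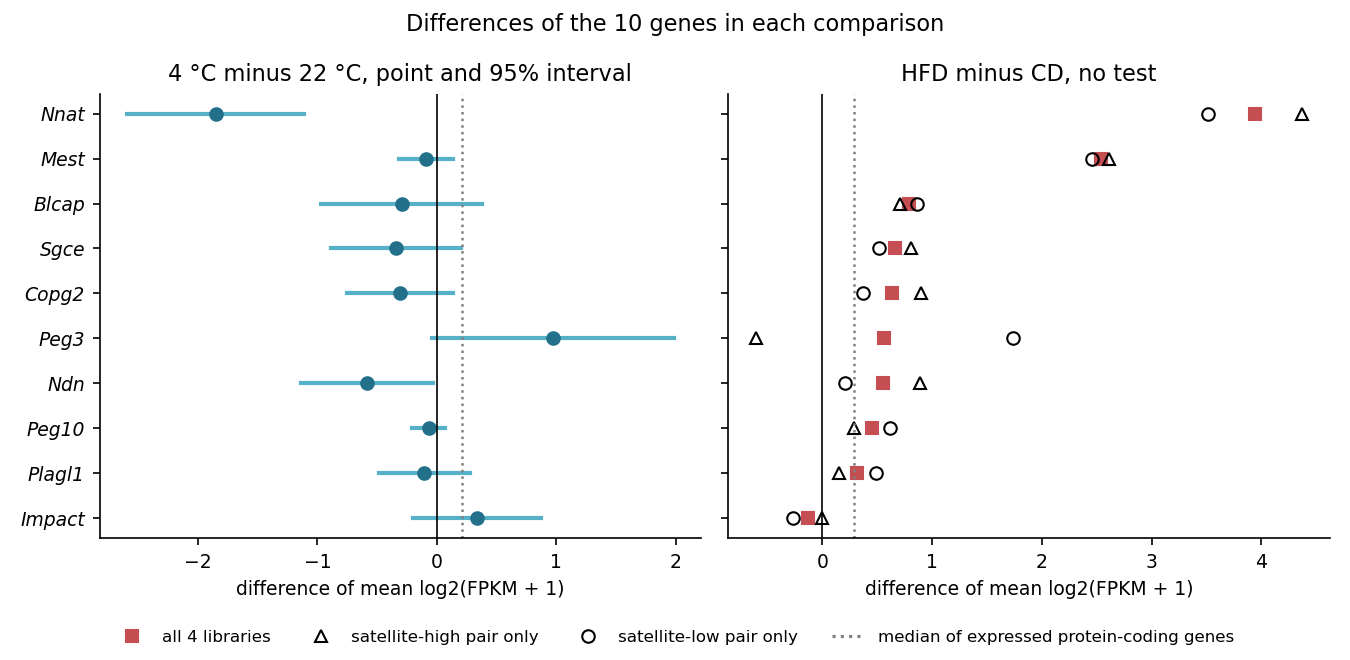
Difference of mean log2(FPKM + 1) for the 10 genes, at the left 4 °C minus 22 °C with the limma 95% interval and at the right HFD minus CD with the value in all 4 libraries (square) and within each satellite type (open symbols), with a dotted line at the median of expressed protein-coding genes. Nnat is the only gene far to the left in the cold, at -1.85, and Peg3 is the gene whose HFD value differs most between the satellite types.

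Across the 10 genes the cold comparison called 0, where a call needs a limma adjusted p under 0.05 and at least a 2-fold change. Over all genes 1.44% were called. At an unadjusted p under 0.05 there were 2, Nnat and Ndn, where 24.5% of all genes tested were under it. Both cold libraries lay below both 22 °C libraries for 6 of the 10 genes (Mest, Copg2, Nnat, Peg10, Sgce and Ndn), against 20.6% of all genes tested. Both lay above for 2 of 10 (Peg3 and Impact), against 37.9% of all genes. The median log2 difference of the 10 genes was -0.20, beside 0.072 over all genes tested. It was lower than that of all genes under each of the scalings tried, at -0.36 beside -0.029 after quantile normalization, -0.46 beside -0.19 after median centring and -0.46 beside -0.10 after rescaling without Ucp1.

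Under HFD both libraries were above both CD libraries for 7 of the 10 genes (Mest, Copg2, Nnat, Blcap, Peg10, Sgce and Plagl1), where 39.9% of all genes did the same and 5.8% lay below in both. The median log2 difference of the 10 genes was 0.60, beside 0.18 over all genes. Nothing is read from this because Mest and Nnat were chosen from this comparison, and Copg2 and Blcap as their neighbours. After median centring the median was 0.25 beside -0.18, and then Plagl1 joined Impact below 0. Leaving out 1 diet library moved several of these differences. Without CD replicate 6, Sgce was at 0.99, Ndn at 1.14, Peg3 at -0.19, Plagl1 at 0.20 and Impact at 0.11. Without CD replicate 8, Copg2 was at 0.36, Blcap at 0.51, Sgce at 0.33, Ndn at -0.041, Peg3 at 1.32 and Impact at -0.38. Without HFD replicate 2, Peg3 was at 0.98 and Impact at -0.020, and without HFD replicate 6, Blcap was at 0.44, Peg3 at 0.15, Ndn at 0.30 and Impact at -0.25. Mest stayed between 2.43 and 2.64 and Nnat between 3.68 and 4.21.

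The other PEGs were counted too, as a list that leaves out all 10 genes. Of 26 further PEGs listed from general knowledge, all were in the table, 11 averaged at least 1 FPKM, and 19 could be tested in the cold and 20 under HFD. By limma 0 passed in the cold and 0 under HFD, where 1.44% and 0.0684% of all genes were called. At an unadjusted p under 0.05 there were 5 of 19 in the cold and 2 of 20 under HFD, beside 24.5% and 14.4% of all genes. In the cold 6 of 19 were above 22 °C in both libraries and 6 were below, beside 37.9% and 20.6% of all genes, and their median difference was 0.00 beside 0.072 over all genes. That median was 0.0012 beside -0.029 after quantile normalization, -0.26 beside -0.19 after median centring and -0.096 beside -0.101 after rescaling without Ucp1. Under HFD 9 of 20 were above and 2 below CD in both libraries, beside 39.9% and 5.8% of all genes, and their median was 0.10 beside 0.18.

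Only 2 further PEGs averaged 5 FPKM or more. Jade1, a subunit of a histone acetyltransferase complex, stood at 10.6 and 10.02 FPKM at 22 °C, 15.7 and 19.5 FPKM at 4 °C, 8.51 and 6.86 FPKM under CD, and 9.90 and 14.3 FPKM under HFD. Its log2 difference was 0.71 in the cold (SE 0.20, limma adjusted p 0.117) and 0.58 under HFD (SE 0.36, limma adjusted p 0.516). Mcts2, a retrogene with a role in translation, stood at 5.38 and 6.19 FPKM at 22 °C, 11.7 and 8.44 FPKM at 4 °C, 10.3 and 6.16 FPKM under CD, and 6.76 and 8.87 FPKM under HFD. Its log2 difference was 0.69 in the cold (SE 0.22, limma adjusted p 0.147) and -0.04 under HFD (SE 0.37, limma adjusted p 0.973). Both cold libraries below 22 °C and both HFD libraries above CD were found for Mest, Copg2, Nnat, Peg10 and Sgce. Of these, Mest and Nnat were chosen for their HFD values. The pattern was also found for 4 of the 19 other PEGs tested in both comparisons, beside 8.94% of all genes tested in both. The 4 were Airn, Inpp5f, Mkrn3 and Peg13, named for this after their values were seen. None of the 4 passed, and their log2 differences were -0.99 to -0.12 in the cold and 0.078 to 0.37 under HFD.

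Genes listed as maternally expressed served as the counterpart, and which parental copy they are read from in BAT was not measured. Of 32 listed, 31 were in the table and 0 of 23 tested and 0 of 22 tested passed by limma in the cold and under HFD, and 11 and 7 had an unadjusted p under 0.05, beside 24.5% and 14.4% of all genes. Their median difference was 0.19 in the cold and 0.28 under HFD, beside 0.072 and 0.18 over all genes. The most abundant were Gnas (a G protein subunit) at 191 to 546 FPKM, Dcn (a matrix proteoglycan), Pon3 and Commd1.

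**Figure D4:**
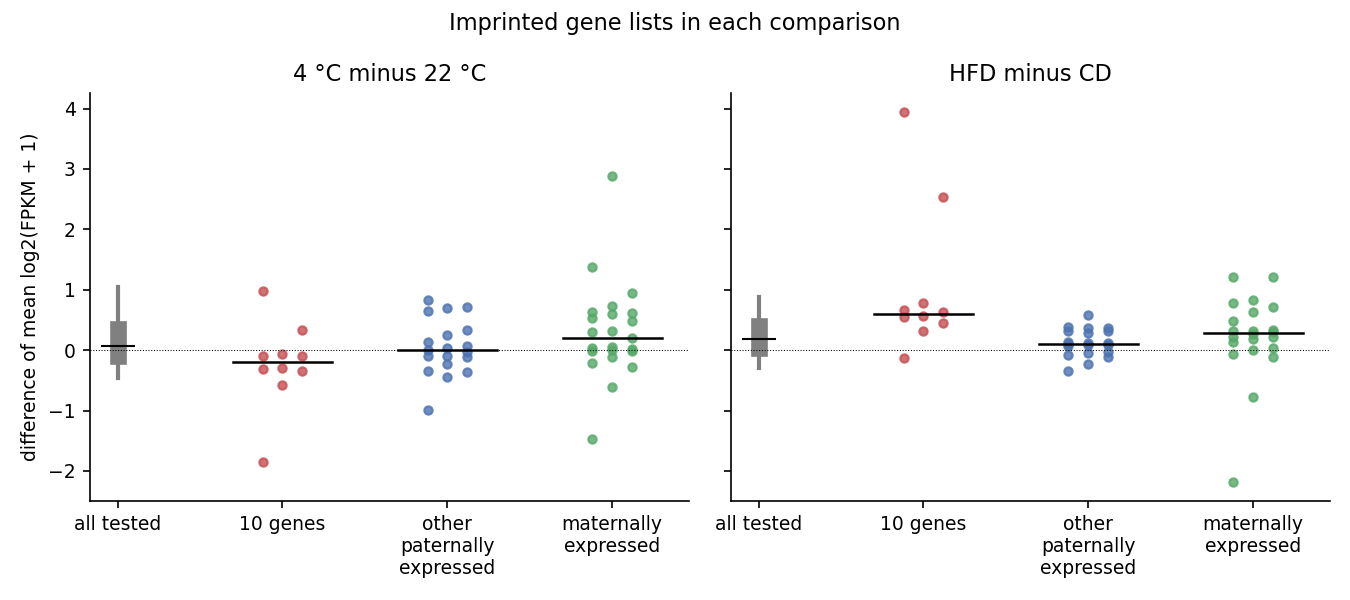
Difference of mean log2(FPKM + 1) of the 10 genes, of the other PEGs and of maternally expressed genes that could be tested, 1 point per gene with a line at the median, beside the median (black tick), the range between quartiles (thick bar) and the central 90% (thin bar) of all genes tested. The other PEGs have medians of 0.00 in the cold and 0.10 under HFD, and Mest and Nnat, chosen for their HFD values, are the highest points at the right.

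Mest is often described with a set of white fat genes that follow fat mass, of which Npr3 (a natriuretic peptide clearance receptor), Sfrp5 (a Wnt inhibitor), Bmp3 (a signalling antagonist) and Lep (leptin) could be tested and Fgf13, on the X chromosome, could not. Npr3 and Lep rose under HFD, Npr3 by 3.34 on the log2 scale (SE 0.37, limma adjusted p 0.0449) and Lep by 5.005 (SE 0.55, limma adjusted p 0.0425), and each passed under 8 of 13 alternatives. Sfrp5 was higher by 1.58 (limma adjusted p 0.158) and Bmp3 by 0.73 (limma adjusted p 0.137), without passing. In the cold Npr3 rose by 2.14 (SE 0.29, limma adjusted p 0.0442), from 6.16 and 4.57 FPKM to 34.0 and 21.3 FPKM. The others did not pass there, with a log2 difference of -2.13 for Lep (SE 0.35, limma adjusted p 0.0527), 1.08 for Sfrp5 (limma adjusted p 0.0861) and -0.12 for Bmp3 (limma adjusted p 0.628). Over 14 settings in the cold, the main one included, Npr3 was called in 12, Lep in 8 and Sfrp5 in 3.

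The partner complexes of 2 members were also counted. Of the 9 coatomer genes tested (Copg2 included), 0 passed by limma in either comparison (1 in the cold and 0 under HFD at an unadjusted p under 0.05, beside 24.5% and 14.4% of all genes), and both HFD libraries lay above CD for 4, beside 39.9% of all genes. Of the 6 sarcoglycan and dystroglycan genes tested (Sgce included), 1 passed, Sgca, the muscle sarcoglycan, with a rise of 2.29 in the cold (SE 0.34, limma adjusted p 0.0486), where 1.44% of all genes were called and the 11 skeletal muscle markers were at higher levels too. At an unadjusted p under 0.05 there were 2 of 6 in each comparison. Over 14 settings in the cold, the main one included, Sgca was called in 9.

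Genes whose levels followed Mest and Nnat most closely over the 8 libraries were ranked among 9928 autosomal protein-coding genes by Pearson r of log2(FPKM + 1), as a description that rests largely on the group means. For Mest they were Iqgap1 (r 0.991), Hnrnpr (0.980), Pcdh7 (0.979), Bcat1 (0.974) and Myo1e (0.974). Iqgap1, a cytoskeletal scaffold, stood at 8.33 to 9.02 FPKM in the 6 other libraries and at 15.7 and 16.1 FPKM under HFD, so this likeness is that of the HFD libraries against the rest. For Nnat they were Lasp1 (r 0.979), Tie1 (0.978), Abi2 (0.971), Themis2 (0.971) and Rhbdf1 (0.965). Lasp1, an actin-binding protein, stood at 11.6 and 11.5 FPKM at 22 °C, 5.81 and 7.61 FPKM at 4 °C, 5.19 and 4.90 FPKM under CD, and 16.6 and 16.3 FPKM under HFD. Over the 4 group means the r of these 10 genes was at least 0.968. They were picked by r over the same libraries, so this value adds no separate support. Nnat itself was in place 671 for Mest, with an r of 0.780.

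**Figure D5:**
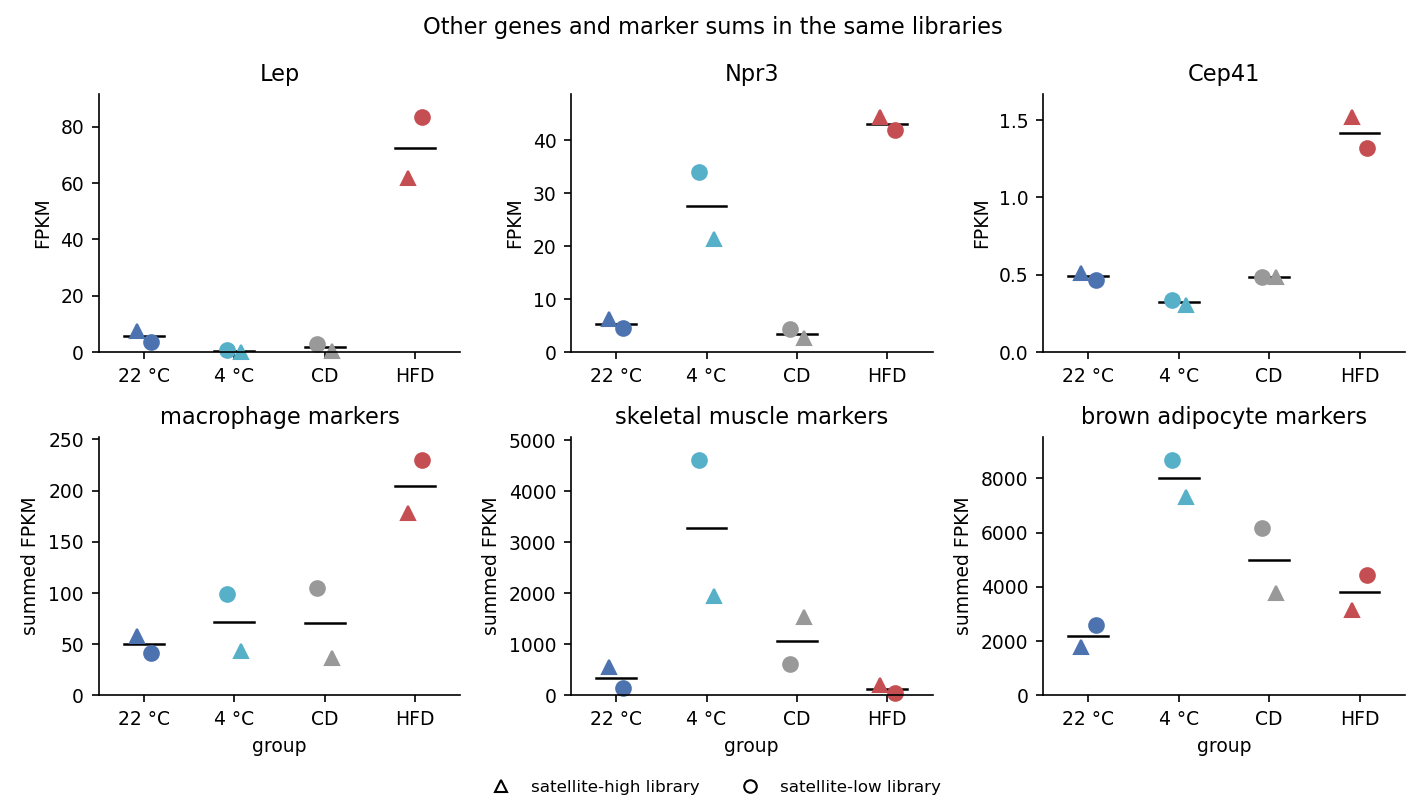
Lep, Npr3 and Cep41 in FPKM and the summed FPKM of macrophage, skeletal muscle and brown adipocyte markers by group, 1 point per library with a line at the group mean. Macrophage markers sum to 179 and 230 FPKM in the HFD libraries and to at most 105 FPKM in the others.

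BAT pieces hold several cell types, and in bulk RNA fewer cells of a type and less RNA per cell cannot be told apart. Macrophage markers were at higher levels in the HFD libraries. All 6 (Adgre1, Cd68, Csf1r, Cd14, Itgam and Lyz2) were above CD in both, as were 39.9% of all genes, and 0 of the 6 passed by limma (adjusted p 0.151 to 0.390). Their sum was 36.5 to 105 FPKM under CD and 179 to 230 FPKM under HFD. White adipocyte markers summed to 12.4 to 20.6 FPKM under CD and 80.6 to 109 FPKM under HFD, largely through Lep, with Hoxc9 and Tcf21 below 0.1 FPKM throughout. Endothelial markers summed to 58.7 to 65.0 FPKM under CD and 93.5 to 102 FPKM under HFD, and preadipocyte and stromal markers to 98.4 to 114 FPKM and 167 to 206 FPKM. Of 11 skeletal muscle markers, 10 lay below CD in both HFD libraries (607 to 1530 FPKM against 39.5 to 198 FPKM in sum) and all 11 lay above 22 °C in both cold libraries (138 to 562 FPKM against 1946 to 4609 FPKM), beside 5.8% and 37.9% of all genes, and limma called 0 of 11 under HFD and 1 of 11, Myh7, in the cold, where 0.0684% and 1.44% of all genes were called. Brown adipocyte markers summed to 1787 to 2587 FPKM at 22 °C and 7329 to 8662 FPKM at 4 °C. Under CD their sum was 3789 to 6166 FPKM and under HFD 3141 to 4452 FPKM. In the cold limma called 3 of 8, Dio2, Elovl3 and Ppargc1a, all higher, beside 1.44% of all genes. Of the 8, 6 lay above and 2 below 22 °C in both cold libraries, beside 37.9% and 20.6% of all genes. The part of these cell types in the differences of the 10 genes was not tested. Neuronal markers bear on Nnat, Peg3 and Ndn, which are known from brain. Nefl, Prph, Dbh and Snap25 were below 0.1 FPKM in all libraries. The 7 neuronal markers together summed to 0.529 to 0.759 FPKM at 22 °C, 1.55 to 1.85 FPKM at 4 °C, 0.901 to 1.13 FPKM under CD and 1.81 to 1.85 FPKM under HFD, and their part in the results was not tested.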

How the data were processed

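The authors depleted ribosomal RNA, sequenced directional libraries as paired ends, mapped reads to GRCm38 and deposited FPKM from Cufflinks (per the labels version 2.2.1, with TopHat2 2.0.10), 1 value per gene and library. Positions are 1-based. The table holds no counts, and the count test of the study was replaced by limma 3.58.1 (R 4.3.3) on log2(FPKM + 1). Each comparison used its 4 libraries and genes outside X, Y and mitochondria that reached 0.1 FPKM in 2 or more of those libraries. Calls needed a Benjamini-Hochberg adjusted p under 0.05 and a log2 fold change of at least 1. Adding 1 understates fold changes of low genes. The labels give each library a replicate number, so p-values cover the spread between 2 libraries per group. The fit was tested on simulated data. For HFD that test recovered none of the planted changes when the noise had the SD of each gene and most of them with moderated SDs, so the low number of calls under HFD does not show that genes did not differ.

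Genes and lists were chosen with earlier results of these data known. The naming rule took all 10 genes, other PEGs if called or at a mean of at least 5 FPKM, neighbours at a mean of at least 1 FPKM, up to 4 genes of each other list, and the 5 genes most like Mest and Nnat. Cell type markers, the whole fat mass list and some neighbours below 1 FPKM (Tsga13, Klf14, Cep41 and Mir335) are named outside it, as are the genes said to be chosen after their values were seen. Gene types and symbols came from GENCODE, with 49195 of 49452 genes matched, and promoters from RefSeq. Depth is not stated in the table. Low FPKM were whole multiples of the value of 1 fragment within 0.1 for 98.1% to 98.8% of those tested, which covers counting error only, without molecular identifiers. Summaries used Python 3.11.15, NumPy 2.4.6, pandas 2.3.3 and matplotlib 3.10.9. Alternatives were another pseudocount, filters, scalings, a satellite-type covariate, all libraries in 1 fit, X, Y and mitochondrial genes kept, and each library left out. The rescaling without Ucp1, the values within satellite types and those against CD replicate 8 were added after seeing the data.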

Additional observations from a re-analysis of the deposited data

How the results depend on the processing

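The HFD differences of Mest (2.18 to 3.64) and Nnat (3.51 to 4.37) kept their sign under all alternatives run. Both genes were chosen for this rise, so the kept sign is a description and no support for it. In the cold, 1 of the 10 genes (Nnat) was called with a pseudocount of 0.1, a filter of 1 FPKM, quantile normalization, median centring, the satellite-type covariate, all 8 libraries in 1 fit, X, Y and mitochondrial genes kept, and the rescaling without Ucp1. Leaving out single libraries gave 0 to 2, the latter (Nnat and Peg3) without 22 °C replicate 7. Impact turned to -0.0042 after that rescaling. Plagl1 ran from -0.26 to 0.050 over the left-out libraries, above 0 without 22 °C replicate 4 (0.035) or 4 °C replicate 11 (0.050). Of the other PEGs, 1 (Airn) was called in the cold after median centring, after rescaling and in 1 of the left-out libraries (0 to 1). Of maternally expressed genes, 0 to 3 were called in each comparison over the settings, Slc22a3 in 9, Cobl in 6 and H19 in 5 of 14 in the cold, and H19 in 4, Rian in 2 and Meg3 in 1 under HFD.

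Counts over all genes moved widely, and the cause was not tested. In the cold, 252 genes (84.5% higher) became 474 with pseudocount 0.1, 0 with no filter (4691 at an unadjusted p under 0.05), 529 with a filter of 1 FPKM, 491 (63.7% higher) after quantile normalization, 758 (65.0% higher) after median centring, 859 with the covariate, 920 with X, Y and mitochondrial genes and 580 (53.6% higher) after rescaling. Leaving out libraries gave 1 (without 4 °C replicate 2) to 767. Under HFD, 12 genes (9 higher and 3 lower) became 0 with no filter, after quantile normalization, with X, Y and mitochondrial genes and after rescaling (2490, 2127, 2533 and 2353 at an unadjusted p under 0.05), 24 with a filter of 1 FPKM, 45 (51.1% higher) after median centring, 745 with the covariate and 25 with all libraries in 1 fit. Leaving out libraries gave 98 to 726. Pairing by replicate number was not possible because 22 °C and 4 °C share no replicate number and CD and HFD share 1. The only blocked fit was the one with the satellite type as covariate. With 2 libraries per group, the cold intervals of 8 of the 10 genes included 0.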
